A study of Mus musculus with 6 samples.

Results

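Transcripts that mark blood in brain tissue were followed in the mouse nucleus accumbens after repeated cocaine. The 10 genes were chosen by name: 6 of red cells (Hba-a1, Hba-a2, Hbb-b1, Hbb-b2, Alas2 and Slc4a1) and 4 of neutrophils (S100a8, S100a9, Camp and Ngp). Each had 1 record in the authors' deposited table, which holds 21540 records under 21203 symbols. C57BL/6 mice were injected intraperitoneally on 7 days, either with saline or with cocaine at a daily dose of 20 mg/kg, and accumbens tissue of the 4 h withdrawal point was sequenced in 3 libraries per group. The labels do not give sex, age or perfusion, nor whether a library is 1 animal or a pool, so the spread behind the deposited p-values may be technical. The table holds a single FPKM value (fragments normalised to transcript length and library size) per group, so no SD between libraries could be given, and read depth is unknown.

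Circulating red cells of mammals have no nucleus, and the RNA they keep is dominated by alpha and beta globin mRNA, whose proteins pair to form haemoglobin. Neutrophils are short-lived granulocytes that store antimicrobial proteins in granules. Brain tissue taken for RNA carries the blood left in its vessels, and globin mRNA has also been reported in some neurons and glia. In bulk tissue, fewer cells of a type and less RNA per cell cannot be told apart.

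The data separated these genes into a high group and a group near 0. The 4 globin records stood between 42.9 and 105 FPKM, Alas2 was close to 1.2 FPKM, and the other 5 were at or under 0.109 FPKM in both groups. All 4 globins had lower values after cocaine. Hba-a2, an alpha globin, fell by 0.26 on the log2 scale (q = 0.0335 in the authors' deposited table) and was the only member past the threshold of q < 0.05. By the same rule 0.709% of all tested records were called lower and 0.521% higher. The 4 neutrophil genes were marked as not tested by the authors, so the neutrophil part of this set could not be compared between the groups.

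The alpha and beta pairs are near-identical copies, and their sequences are shown because they limit what each single record can say. In the GENCODE M21 transcripts the coding sequences of Hba-a1 and Hba-a2, 429 bases each, differed at 1 base, C381T, counted from 1 at the A of the start codon with the base of Hba-a1 first. Those of the records named Hbb-b1 and Hbb-b2, 444 bases each, also differed at 1 base, C417T. Neither change alters the protein, so within each pair the encoded chains of 142 and 147 residues were the same. The stretches around the single difference are given 5′ to 3′, with the differing base in capitals:
Hba-a1: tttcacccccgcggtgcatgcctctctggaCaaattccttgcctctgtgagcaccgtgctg
Hba-a2: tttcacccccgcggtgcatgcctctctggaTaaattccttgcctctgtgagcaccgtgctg
Hbb-b1: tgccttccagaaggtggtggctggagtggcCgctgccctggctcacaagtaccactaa
Hbb-b2: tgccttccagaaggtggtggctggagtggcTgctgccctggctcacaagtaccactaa

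Outside the coding part the copies differ more. Of all windows of 50 bases in the Hba-a2 transcript, 86.9% also occurred in Hba-a1, and 67.5% of those of Hba-a1 occurred in Hba-a2. The shares were 65.8% for Hbb-b1 and 58.3% for Hbb-b2. With windows of 100 bases they were 74.5% for Hba-a2, 56.5% for Hba-a1, 62.6% for Hbb-b1 and 54.8% for Hbb-b2. For the 6 members that are not globins the share was 0%. Reads from the shared windows cannot be assigned to a copy, and neither the read length nor the way the authors divided such reads is known, so the values of single globin copies are uncertain. The identifiers of Hbb-b1 (ENSMUSG00000052305) and Hbb-b2 (ENSMUSG00000073940) carry the symbols Hbb-bs and Hbb-bt in GENCODE M21, the names of the adult beta globin genes of the C57BL/6 haplotype, and the deposited symbols are kept here.

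The promoters of the globin copies are shown as sequence background, and no link between them and the fold changes was tested. The 250 bases before the RefSeq start site (GRCm38.p6) are given 5′ to 3′ on the gene's strand, with 4 motifs in capitals, searched on both strands: ATATAA is a TATA-like element, the box CCAAT is bound by the general factor NF-Y, the box CACCC by Krüppel-like factors, and GATAAG is the core of sites bound by erythroid GATA factors. The window of Hba-a2 lies at chr11:32296242-32296491 (+), that of Hbb-b1 at chr7:103827929-103828178 (-) and that of Hbb-b2 at chr7:103813924-103814173 (-):
Hba-a2: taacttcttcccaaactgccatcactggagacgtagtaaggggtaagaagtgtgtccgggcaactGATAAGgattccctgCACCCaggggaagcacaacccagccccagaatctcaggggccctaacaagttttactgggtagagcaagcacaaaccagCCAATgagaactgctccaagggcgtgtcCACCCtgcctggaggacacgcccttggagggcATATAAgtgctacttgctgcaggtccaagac
Hbb-b1: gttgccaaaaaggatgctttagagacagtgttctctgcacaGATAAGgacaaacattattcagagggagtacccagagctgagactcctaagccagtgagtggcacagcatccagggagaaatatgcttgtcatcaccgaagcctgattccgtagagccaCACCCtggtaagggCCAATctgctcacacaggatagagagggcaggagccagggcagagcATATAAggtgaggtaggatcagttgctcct
Hbb-b2: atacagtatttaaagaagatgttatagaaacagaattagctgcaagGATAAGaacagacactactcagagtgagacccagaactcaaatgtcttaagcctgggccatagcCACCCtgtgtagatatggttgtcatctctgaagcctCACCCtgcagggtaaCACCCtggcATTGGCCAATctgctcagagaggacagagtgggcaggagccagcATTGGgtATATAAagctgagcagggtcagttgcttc

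The window of Hba-a1, at chr11:32283422-32283671 (+), shared an unbroken run of 247 bases with that of Hba-a2 and is not repeated. The longest run shared by the beta windows was 14 bases. All 4 windows held each of the 4 motifs. Of 32851 promoter windows of this length in the same table, 9.10% held ATATAA, 33.8% CCAAT, 52.0% CACCC and 6.55% GATAAG. In the Hbb-b2 window a reversed CCAAT directly adjoins a forward one without overlap. These matches describe letters only.

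Alpha globin, the chain encoded by Hba-a1 and Hba-a2, gave the highest values. Hba-a1 stood at 105 FPKM after saline and 87.1 FPKM after cocaine. Hba-a2 stood at 80.9 FPKM after saline and 67.4 FPKM after cocaine. Both values were thus lower after cocaine, with changes of -17.4% for Hba-a1 and -16.7% for Hba-a2.

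In the authors' deposited table the log2 fold change of Hba-a2 was -0.26 (p = 0.000303, q = 0.0335), and it passed. That of Hba-a1 was -0.28 (p = 0.00151, q = 0.120 in the authors' deposited table), and it did not pass, although its level and the size of its fold change were larger. Summed over both copies, alpha globin stood at 186 FPKM after saline and 155 FPKM after cocaine, a log2 fold change of -0.27 that has no test of its own.

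Beta globin, the partner chain, was lower by less. Hbb-b1 stood at 67.4 FPKM after saline and 62.5 FPKM after cocaine, with a log2 fold change of -0.11 (p = 0.232 in the authors' deposited table). Hbb-b2 stood at 46.2 FPKM and 42.9 FPKM, also with -0.11 (p = 0.118 in the authors' deposited table). Neither passed. The beta sum was 114 FPKM after saline and 105 FPKM after cocaine, a change of -7.14%.

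**Figure D1:**
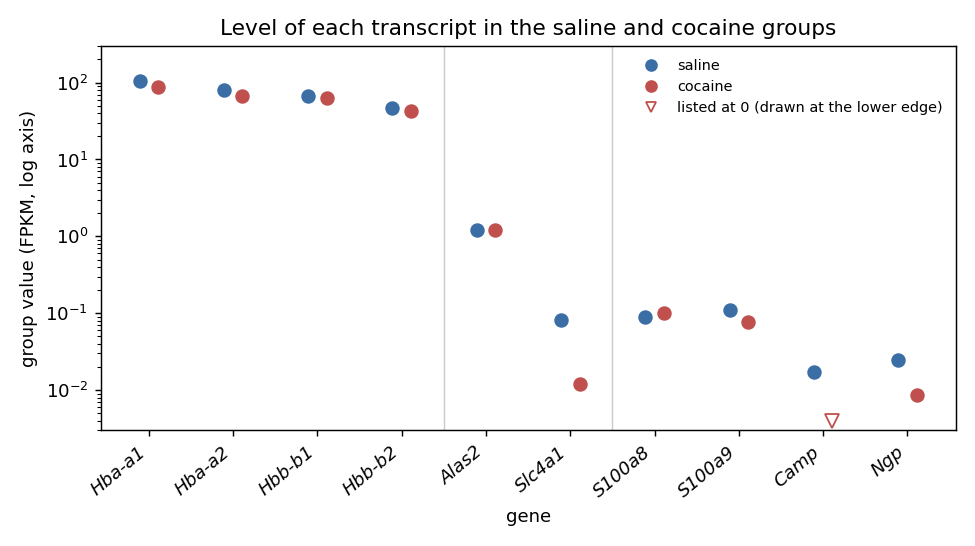
Group values of the 10 transcripts in FPKM on a log axis, saline in blue and cocaine in red, 1 point per group with no error bar because the table holds 1 value per group. The 4 globins stand between 42.9 and 105 FPKM, Alas2 near 1.2 FPKM, and the other 5 at or under 0.109 FPKM, with Camp listed at 0 after cocaine.

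Within a pair the ratio of the copies was nearly the same in both groups. Since reads from shared windows cannot be assigned to a copy, a steady ratio says little about the single genes. The ratio of Hba-a1 to Hba-a2 was 1.30 after saline and 1.29 after cocaine, and that of Hbb-b1 to Hbb-b2 was 1.46 in both. The ratio of the alpha sum to the beta sum went from 1.64 after saline to 1.47 after cocaine. Whether alpha and beta globin differed in their response could not be tested without values per library. Together the 4 globins held 0.0541% of summed FPKM after saline and 0.0462% after cocaine.

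By size, Hba-a2 ranked 23 among the 106 called falls. Among the 1629 tested records with a mean of 40 to 120 FPKM, a range set after seeing the globin values to enclose them, the median log2 fold change was -0.02 and the 5th percentile was -0.13. In that range 47 records, or 2.89%, were called in either direction, against 1.23% of all tested records. The fold change was at or below that of Hba-a2 for 5 records of the range, both alpha globins among them, the others being Smn1, Cd200 and Cck. The beta globins lay within the range of most records: 9.76% of those 1629 were at or below Hbb-b1.

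**Figure D2:**
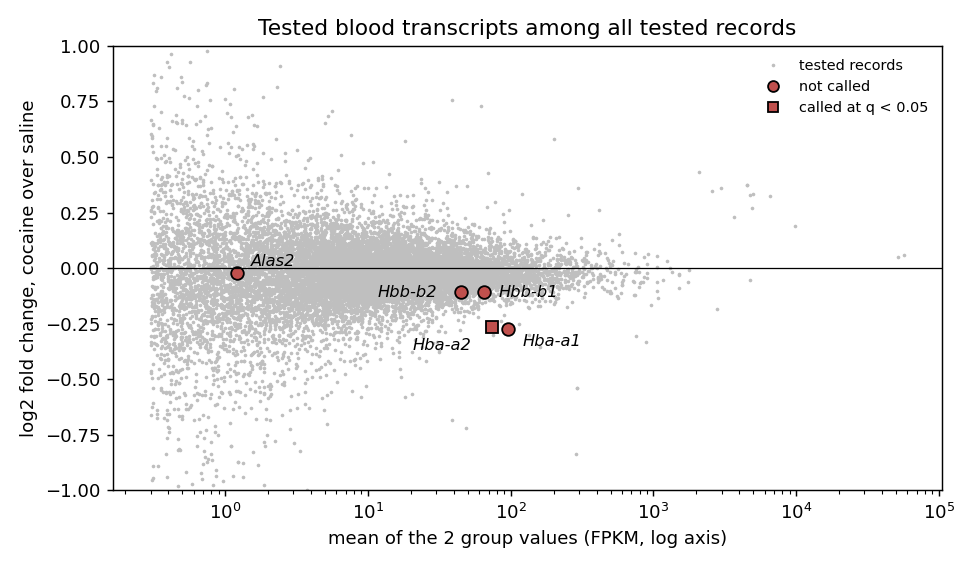
Deposited log2 fold change, cocaine over saline, against the mean of both group values (FPKM, log axis) for 14539 tested records in grey, those under 0.3 FPKM or beyond 1 on the log2 scale left out, with the 5 tested blood transcripts in red. Both alpha globins lie at -0.26 and -0.28, below most records of their level, the beta globins at -0.11 and Alas2 at -0.02.

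Alas2 encodes the erythroid form of the first enzyme of haem synthesis. It stood at 1.21 FPKM after saline and 1.19 FPKM after cocaine, a log2 fold change of -0.02 (p = 0.969 in the authors' deposited table). At this level the test made few calls: 3 of 2351 tested records with a mean of 0.6 to 2.4 FPKM passed, a range also set after seeing the value. The summed globins stood 247 times as high as Alas2 after saline and 218 times as high after cocaine, on the per-length FPKM scale.

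Slc4a1 encodes band 3, the anion exchanger of the red cell membrane. It was listed at 0.0816 FPKM after saline and 0.0119 FPKM after cocaine, and the table marks it as not tested. Both values are too near 0 for a fold change to be read.

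The neutrophil genes were low in both groups. S100a8 and S100a9 encode the subunits of calprotectin, an abundant calcium-binding protein of the neutrophil cytosol. S100a8 stood at 0.0886 FPKM after saline and 0.101 FPKM after cocaine. S100a9 stood at 0.109 FPKM and 0.0769 FPKM. The values of the pair differed in opposite directions, at levels the authors did not test.

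Camp, the precursor of the antimicrobial peptide cathelicidin, was listed at 0.0171 FPKM after saline and at 0 after cocaine. Ngp, a neutrophil granule protein, was listed at 0.0248 FPKM and 0.00859 FPKM. Summed over the 4 genes, the neutrophil values were 0.239 FPKM after saline and 0.186 FPKM after cocaine, against 300 and 260 FPKM for the summed globins.

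As a set, the 5 tested members all had values below 0, against 59.2% of the tested records of at least 1 FPKM. Their count rests on 3 independent sequences at most, since the globin copies share reads. Their median log2 fold change was -0.11, beside -0.02 over those records. At an unadjusted p under 0.05, 2 members were lower, both alpha globins, where 3.74% of all tested records were lower and 2.02% higher by that rule. With q = 0.0335, Hba-a2 necessarily passed the looser q < 0.1 (0.869% of tested records lower), and it did not pass q < 0.01 (0.455% lower). It also passed with the same p-values adjusted only over the fewer records of at least 1 FPKM (0.901% lower).

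Other genes of the red cell lineage were taken from a list of embryonic and other globins and a list of erythroid membrane, enzyme and transcription factor genes. By the authors' deposited test 0 of 3 tested other globins and 0 of 15 tested erythroid genes passed, and 0 in either list were past an unadjusted p of 0.05. Where a pair of values follows a gene name, saline comes first and cocaine second. The embryonic globins Hba-x, Hbb-bh1 and Hbb-bh2 were listed at 0 in both groups, and Hbb-y at 0.0374 and 0.0187 FPKM. Cygb, cytoglobin, which is made by fibroblast-like cells and some neurons, was at 17.9 and 18.4 FPKM after saline and after cocaine, and Ngb, the neuronal globin, at 1.48 and 1.22 FPKM. These relatives of the globins did not pass either (p = 0.391 for Cygb and p = 0.390 for Ngb in the authors' deposited table). Hbq1a, a theta globin, was listed at 0.254 and 0.0301 FPKM and did not pass (p = 0.154 in the authors' deposited table). Mb, myoglobin, was listed at 0.171 and 0.156 FPKM with no test.

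Among 27 erythroid genes measured, 15 stayed under 1 FPKM in both groups. Klf1, an erythroid transcription factor, was at 0.0711 and 0.122 FPKM, and Gata1, a master regulator of the lineage, was listed at 0 in both groups. These 2 were chosen after their values were seen. The most abundant were Bnip3l, a mitophagy receptor (67.7 and 67.2 FPKM), Car2, a carbonic anhydrase also made by oligodendrocytes (61.9 FPKM in each group), Spnb1, a spectrin also made by neurons (57.5 and 58.5 FPKM), and Bpgm, the enzyme that makes the haemoglobin effector bisphosphoglycerate (37.2 and 38.0 FPKM). The 12 erythroid genes of at least 1 FPKM had a median log2 fold change of -0.0012. Of these 12, 7 were below 0, beside 59.2% of all tested records of at least 1 FPKM.

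Haem supply and disposal were measured next to the globins. The 8 haem synthesis enzymes gave 0 calls, 0 past an unadjusted p of 0.05 and a median of -0.04 in the authors' deposited table. Values below 0 were found for 7 of these 8, beside 59.2% of all tested records of at least 1 FPKM. Their highest members were Urod (62.4 and 61.8 FPKM), Alas1, the form of the first enzyme used outside the erythroid lineage (24.7 and 23.1 FPKM), Fech, which inserts iron (18.7 and 18.4 FPKM), and Alad (16.5 and 15.7 FPKM). Of 8 tested genes for the uptake and breakdown of haemoglobin and haem and the storage of iron, 0 passed, 6 had values below 0 and the median was -0.08. Fth1, the ferritin heavy chain, was at 1534 and 1503 FPKM (p = 0.00487, q = 0.278 in the authors' deposited table), the only member past an unadjusted p of 0.05. Ftl1, the ferritin light chain, was at 82.8 and 78.7 FPKM, Hmox2, the constitutive haem oxygenase, at 56.0 and 59.0 FPKM, and Lrp1, a receptor that takes up haemopexin-bound haem, at 140 and 128 FPKM. Cd163, the macrophage receptor for haptoglobin-bound haemoglobin, was at 1.41 and 1.25 FPKM, and Hmox1, the inducible haem oxygenase, at 2.14 and 2.19 FPKM, both named after their values were seen.

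Most genes on the lists of other blood cells stayed under 1 FPKM in both groups. Of 34 further neutrophil genes measured, 29 stayed under 1 FPKM in both groups, 10 were tested, and 0 passed by the authors' deposited test or at an unadjusted p under 0.05. Ly6g and Mmp8, a surface marker and a granule collagenase, were listed at 0 in both groups, and Mpo, myeloperoxidase, at 0.0781 and 0.0960 FPKM, 3 genes named after their values were seen. The most abundant on that list were Chi3l1, a chitinase-like protein (4.56 and 5.10 FPKM), Pglyrp1, a peptidoglycan-binding granule protein (3.46 and 3.09 FPKM), Prtn3, proteinase 3 (2.67 and 2.59 FPKM), and Csf3r, the receptor of granulocyte colony-stimulating factor (1.74 and 1.95 FPKM).

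Platelet, monocyte and lymphocyte genes gave 0 calls among 6, 6 and 3 tested members in the authors' deposited table, and 0, 1 and 0 members past an unadjusted p of 0.05. Of the 12 platelet genes 10 stayed under 1 FPKM, among them Pf4, platelet factor 4 (0.706 and 0.351 FPKM) and Gp1ba, a subunit of the von Willebrand factor receptor (0.598 and 0.559 FPKM), while Gp1bb, another subunit of it, stood at 13.4 and 12.5 FPKM and Itga2b, the platelet integrin, at 2.19 and 3.05 FPKM. Of 15 lymphocyte genes 14 stayed under 1 FPKM, the exception being Cd247, the T cell receptor zeta chain (2.32 and 2.17 FPKM). On the monocyte list Fn1, fibronectin, which vessel cells also make, was at 2.89 and 2.23 FPKM (p = 0.00128, q = 0.105 in the authors' deposited table), and was the 1 member past an unadjusted p of 0.05. Vcan (10.5 and 9.24 FPKM), Ly6c2 (4.17 and 4.06 FPKM) and Lyz2 (2.31 and 2.44 FPKM) were its other abundant members. Which cells of the tissue gave the values above 1 FPKM on these blood cell lists, those of Gp1bb, Vcan and Chi3l1 included, was not tested.

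Markers of the vessel wall were lower in the same group as the globins. Of 20 endothelial genes 18 had values below 0, with a median of -0.31, and summed endothelial values were 151 FPKM after saline and 131 FPKM after cocaine. Only Cldn5, a tight junction protein of brain endothelium, passed (10.2 and 7.46 FPKM, q = 0.00123 in the authors' deposited table), and 5 members were lower at an unadjusted p under 0.05. Over the whole series, 59.2% of tested records of at least 1 FPKM had values below 0. By the unadjusted rule 3.74% of all tested records were lower. Slc2a1, the glucose transporter of the blood-brain barrier, was at 28.0 and 25.0 FPKM, Egfl7 at 23.9 and 22.4 FPKM, and Itm2a at 16.2 and 14.7 FPKM, while Ly6c1 had a log2 fold change of -0.10. All 10 mural cell genes of at least 1 FPKM were below 0, with a median of -0.13, 0 calls and 1 member, Pdgfrb, past an unadjusted p of 0.05, and their list, 12 genes in all, summed to 56.6 FPKM after saline and 51.0 FPKM after cocaine. Among them Vtn was at 21.9 and 20.3 FPKM, Rgs5, a pericyte gene, at 9.89 and 9.16 FPKM, Acta2, smooth muscle actin, at 5.13 and 4.66 FPKM, and Pdgfrb, a pericyte growth factor receptor, at 4.41 and 3.95 FPKM.

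The ratio of the summed globins to the summed endothelial genes was 1.99 after saline and 1.98 after cocaine. Against single genes of that list the ratio was higher after cocaine for 12 of 20 and lower for 8: it went from 29.5 to 34.9 against Cldn5 and from 10.7 to 10.4 against Slc2a1, with no test of either. The part of vessel content in the lower globin values was not tested.

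Markers of cells of the tissue itself were read the same way. The 15 microglial genes gave 0 calls, 0 past an unadjusted p of 0.05, a median of 0.05 and 5 values below 0. Of all tested records of at least 1 FPKM, 59.2% were below 0. Abundant members included the complement genes C1qb (31.9 and 34.0 FPKM) and C1qa (30.5 and 29.3 FPKM), and Csf1r, a growth factor receptor (29.9 and 29.4 FPKM). Of 12 spiny neuron genes, which mark the main neurons of the accumbens and were all detected, 0 passed and the median was -0.03. Of these 12, 10 had values below 0. At an unadjusted p under 0.05, 3 of them were lower, beside 3.74% of all tested records. Penk, the enkephalin precursor, stood at 1531 and 1498 FPKM, Ppp1r1b, a phosphatase inhibitor of dopamine signalling, at 829 and 795 FPKM, and Tac1, the substance P precursor, at 220 and 217 FPKM.

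Genes of the liver's plasma proteins were mostly near 0. Alb, serum albumin, was listed at 0.00450 and 0.00941 FPKM, and Apoa1 and Apoa2 at 0.272 and 0.311 FPKM and at 1.72 and 0.936 FPKM. Ttr, transthyretin, which the choroid plexus also makes, was the 1 call on that list (0.668 and 10.8 FPKM, q listed as 0 in the authors' deposited table). Among 12 choroid plexus genes, Ttr was also the only call, and 9 stayed under 1 FPKM in both groups. Of the others, Clic6 (6.42 and 5.65 FPKM), Kl (1.46 and 1.42 FPKM) and Folr1 (0.234 and 0.618 FPKM) had the highest mean values. With Ttr included, the 12 genes summed to 9.91 FPKM after saline and 20.5 FPKM after cocaine. The median log2 fold change was -0.04 over the 3 tested genes of at least 1 FPKM and 0.21 over all 7 tested genes. The part of choroid plexus content in the globin values was not tested.

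**Figure D3:**
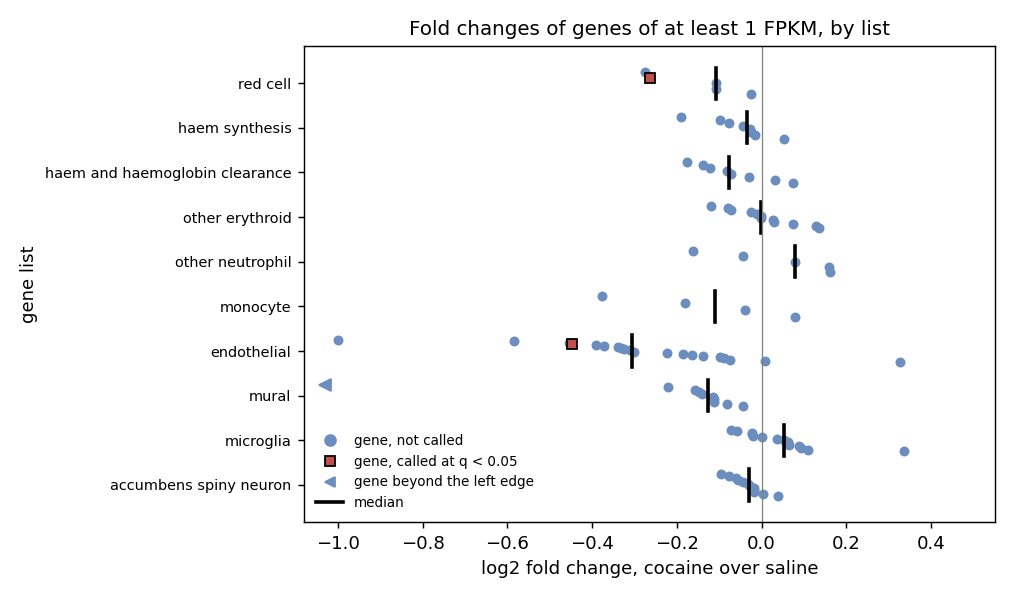
Deposited log2 fold changes, cocaine over saline, of tested genes that reached 1 FPKM in either group, by gene list, with called genes as red squares and medians as black bars. The red cell genes have a median of -0.11 with Hba-a2 as the only call, the endothelial genes a median of -0.31 with Cldn5 as the only call, and the microglial genes a median of 0.05; 1 mural gene lies beyond the left edge and is drawn there.

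Over 5 settings for each of the 4 globins, all 20 values stayed below 0, but most settings could not have changed a sign. An added pseudocount (0.1 or 1 FPKM) cannot do so. The shifts for the median of tested records (-0.02) and for equal summed FPKM (-0.00056) were small beside the globin fold changes. Removing the trend of fold change with GC content and transcript length moved the globin values most. They went to -0.21 for Hba-a1, -0.20 for Hba-a2 and -0.07 for each beta globin. Genes of like GC content and length had a median of -0.07 for the alpha and -0.04 for the beta globins. The beta values moved by over 1.5 times in that setting. Alas2 turned to 0.0184.

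**Figure D4:**
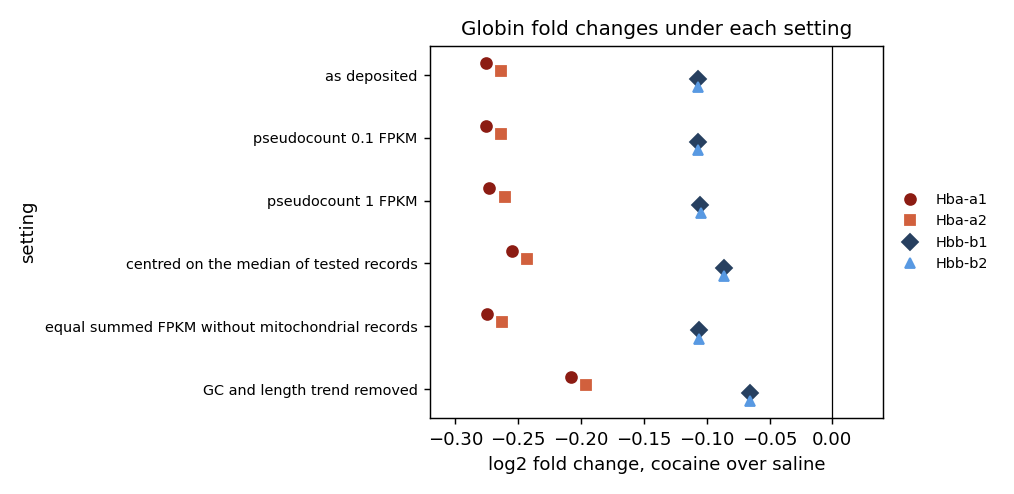
Log2 fold change, cocaine over saline, of the 4 globins as deposited and under 5 other settings, 1 point per gene and setting. All points lie left of 0, the alpha globins between -0.28 and -0.20 and the beta globins between -0.11 and -0.07.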

How the data were processed

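RNA sequencing of nucleus accumbens gave 3 saline and 3 cocaine libraries, grouped by their treatment label, although the protocol text of the saline ones also describes cocaine. TopHat2 2.0.6, Cufflinks 2.0.2 and build NCBIM37 were used, per the submitters' processing notes. The authors' deposited FPKM values are 1 per group, a unit read from the table's Cuffdiff layout and not written in it. The authors also deposited, for each record, the p-value and q-value of their own test beside the log2 fold change. The authors' settings and the depth per library were not known, so no counting interval was computed, and the planned test per library was not run. The deposited q-values are not the Benjamini-Hochberg values of the tested records in the table: for Hba-a2 those gave 0.0268, not 0.0335.

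A record marked as tested (14959 of 21540) was called at q < 0.05. Gene lists used 1 record per symbol, that with the highest mean FPKM, and medians used members that reached 1 FPKM in either group. The members and lists were chosen with earlier results of these data known. All 10 members are named, and from each other list every called gene and the 4 of highest mean FPKM, unless said otherwise. Some genes that this rule names are not reported here. Transcript length and GC content came from the longest GENCODE M21 transcript by Ensembl identifier (12571 of 12833 genes, 98.0%), and the trend was the median of each of 10 by 10 bins. Promoters came from RefSeq (GRCm38.p6), which had a window for 9 of the 10 members. Of these steps, only the trend removal and the Benjamini-Hochberg adjustment were tested on simulated data. Python 3.11.15, numpy 2.4.6, pandas 2.3.3, scipy 1.17.1 and matplotlib 3.10.9 were used.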

Additional observations from a re-analysis of the deposited data

How the results depend on the processing

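No paired analysis was possible because the table holds 1 value per group, and for the same reason no library could be left out. The single call, Hba-a2 at q = 0.0335, necessarily passed the looser q < 0.1 (1 member). The same deposited p-values were also adjusted over records of at least 1 FPKM (0.0233, 1 member). An adjustment over all tested records, added after seeing the data, gave 0.0268 (1 member). The call ended at q < 0.01 (0 members), and at an unadjusted p under 0.05 the count was 2. The summed beta globins had a log2 fold change of -0.107. With the GC and length trend removed, the median of the beta copies, not their sum, was -0.0654. The summed alpha globins stood at -0.270, and at -0.249 when centred on the median of tested records. With the GC and length trend removed, the median of the alpha copies was -0.202. Alas2 turned from -0.02 to 0.0184 with that trend removed. The median over the 9 members with a value in both groups was -0.26, a value that rests on untested genes near 0, and was -0.11 over the tested members of at least 1 FPKM and -0.19 over those of at least 5 FPKM. Without a minimum of 1 FPKM, list medians turned from 0.08 to -0.10 for other neutrophil genes, from 0.19 to -0.10 for platelet genes and from -0.04 to 0.21 for choroid plexus genes. No member had more than 1 record, so the choice among records was not run. The cause of these shifts was not tested.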
